A study of Macaca mulatta with 24 samples.

Results

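Angiogenesis and endothelial genes were followed in rhesus monkey endometrium over the days in which an embryo travels towards the uterus. A list of 50 genes was taken, and 29 of them were found on the array under their own symbol, among 7758 distinct gene symbols there. These 29 members comprised 7 growth factors, 7 endothelial markers, 3 vascular receptors, 2 platelet-derived growth factor receptors, 6 endothelial transcription factors and Notch genes, and 4 vasoactive and matricellular modulators. A further 12 listed genes were carried under another name and are described apart. The remaining 9, which include KDR, FLT1, FLT4 and PECAM1, were not analysed here.

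Endometrium, the lining of the uterus, came from mated cycles with proven conception and from normo-ovulatory cycles without mating. It was taken on day 2, 4 or 6, with 4 arrays in each of the 6 groups. The source labels count the days from fertilization in conception cycles and from ovulation in non-mated ones. All donors were female rhesus monkeys of proven fertility, and the labels name no age, strain or treatment beyond mating and day. The labels do not tie each array to an animal of its own, and the p-values therefore reflect the scatter among these arrays, some of which could be technical. For 8 non-mated arrays the title says day 2 although all other labels say day 4 or 6, and those were followed.

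Blood vessels grow when ligands such as the VEGF family reach receptors on endothelial cells, the cells that line vessels. The angiopoietins ANGPT1 and ANGPT2 act through the receptor TEK to steady or loosen vessels, and endothelial PDGFB draws in mural cells that carry PDGFRB. Notch signalling from the ligand DLL4 to targets such as HEY1 restrains sprouting. In primate endometrium the vessel bed is rebuilt in every cycle, and the secretory phase brings growth and coiling of the spiral arteries.

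A level here is the log2 signal of a probe minus the 75th percentile of its array, so 0 marks a signal equal to that percentile and 1 unit is a 2-fold change. Levels of different genes come from different probes and are not set against each other. The 75th percentile was 72.2 to 5421 signal units on 21 arrays, and 53.3% to 71.5% of probes there were well above background. On 3 weak non-mated arrays, day 2 replicate 3 and day 4 replicates 1 and 2, the share was 4.33% to 37.9%. These 3 were left out of the fits, which leaves 3 arrays at non-mated day 2 and 2 at non-mated day 4. Some values over all 24 arrays are added for comparison. The 5 non-mated arrays kept on slides 5 and 6 had 68.0% to 71.5% of probes well above background, against 53.3% to 67.3% on the other 16 arrays, so a count of arrays well above background also moves with the array. Of the 29 members, 24 passed the brightness filter (3 of the 4 arrays of some group well above background) and were tested, so these had to be bright somewhere. TEK reached 3 arrays well above background in conception groups only, THBS2 in conception day 2 only and SOX18 in non-mated day 6 only, so these 3 were tested because of those groups, and their differences from other groups are not independent of the filter. The other 5 were FIGF, FGF1, THBD, ERG and ECE1.

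The endothelial markers were present in the tissue. VWF, which tethers platelets, the adhesion molecule ESAM, the nitric oxide synthase NOS3 and the water channel AQP1 were well above background on 21 of 21 arrays, ICAM2 on 20, CDH5 on 17 and THBD on 9.

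Conception and non-mated endometrium were compared on each day to ask whether the vessel genes of the uterine lining differed in a cycle with an embryo. No member passed an adjusted p of 0.05 (limma with Benjamini-Hochberg adjustment over 12203 features) on day 2, 4 or 6 or averaged over the days. Over all features, 0%, 0%, 0.0246% and 0.0164% were past that threshold in the 4 comparisons. At an unadjusted p under 0.05 there was 1 member on day 2, THBS1, against 1.22% of features. There were 2 on day 4, TEK and HEY1, against 5.46% of features, and 2 on day 6, ICAM2 and EDN1, against 9.34%. Averaged over the days there were 2, TEK at 0.61 ± 0.25 and THBS2 at 1.45 ± 0.59, against 7.69%. TEK and THBS2 had passed the brightness filter through conception groups only. Their part in these counts is therefore not independent of the filter. The 95% interval of the difference lay within 2-fold either way for 10 of 24 members on day 2, 1 on day 4 and 6 on day 6, where 45.3%, 28.6% and 43.5% of features did.

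**Figure D1:**
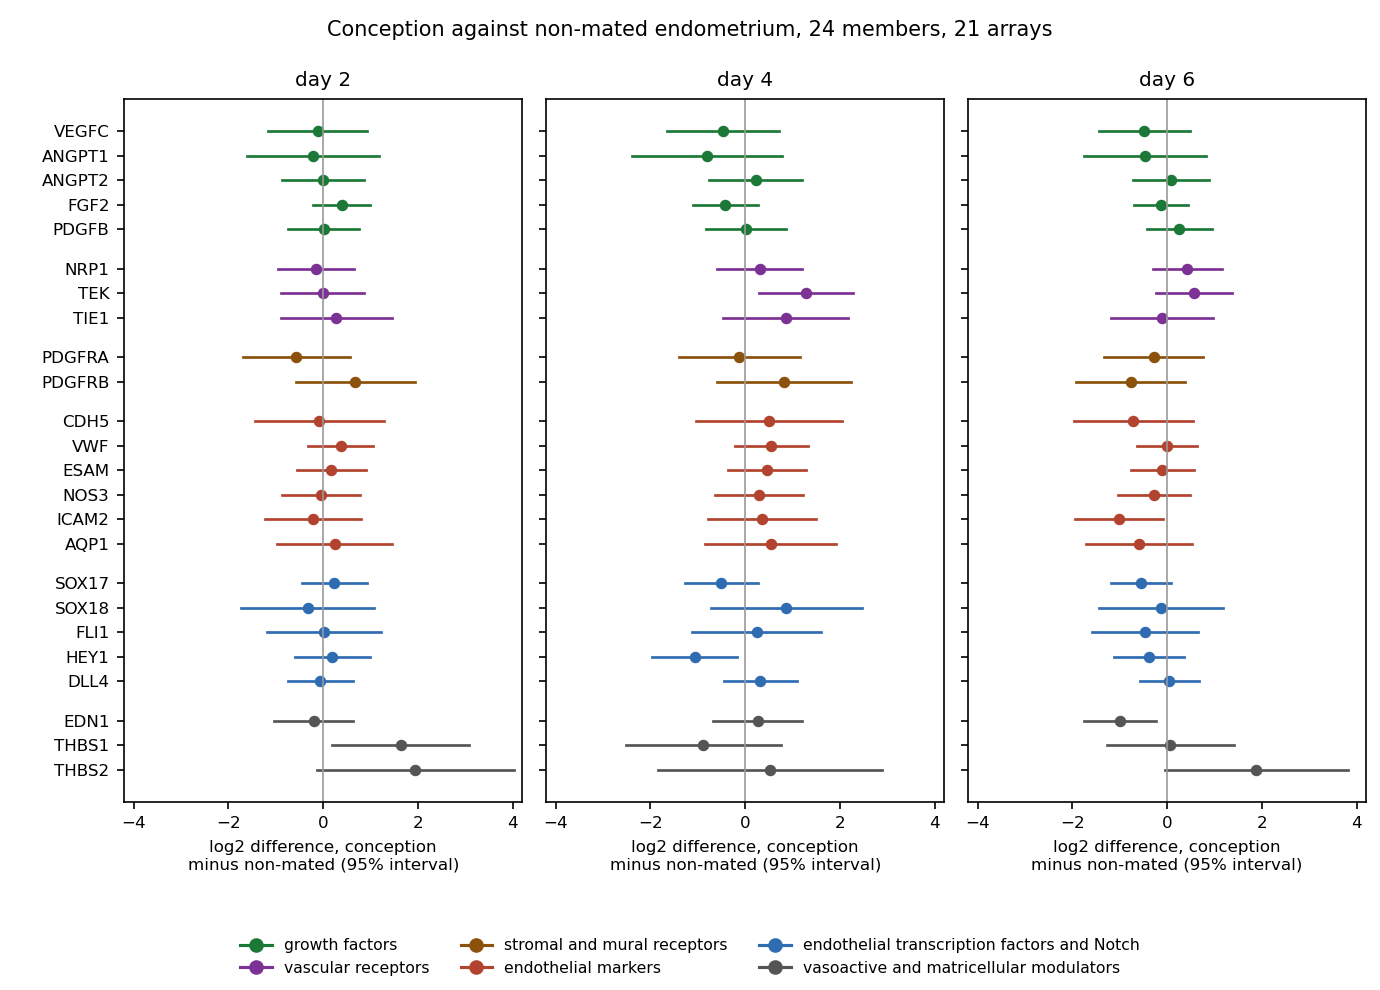
Log2 difference of conception minus non-mated endometrium for the 24 tested members on days 2, 4 and 6, each point with its 95% interval and coloured by class. The 6 endothelial markers lie right of 0 on day 4 and left of 0 on day 6, and most intervals of the 3 days cross 0.

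On day 2 the 5 tested growth factors had differences of -0.21 to 0.39 with a median of 0.001 (-0.65 over 24 arrays, against -0.15 for all features), and on day 6 of -0.48 to 0.26 with a median of -0.13. ANGPT2, which loosens vessels, lay at -2.93, -3.05, -3.35 and -2.81 on the conception day 2 arrays and at -2.66, -2.85 and -3.60 on the non-mated ones. Its difference was 0.001 ± 0.41 (SE) on day 2, with a 95% interval of -0.87 to 0.87, and 0.09 ± 0.38 on day 6. FGF2, a broad mitogen of endothelial and stromal cells, differed by 0.39 ± 0.29 on day 2, by -0.42 ± 0.33 on day 4 and by -0.13 ± 0.27 on day 6. PDGFB differed by 0.26 at most. These 3 genes are those growth factors whose intervals on both day 2 and day 6 stayed within 2-fold.

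ANGPT1, made by mural and stromal cells, lay at -3.38, -2.60, -1.09 and -1.91 on conception day 2 against -1.27, -2.72 and -2.12, a difference of -0.21 ± 0.66. It was the growth factor with the lowest difference on day 4. Its levels were -2.09, -1.89, -3.20 and -2.64 on the conception arrays and -0.59 and -2.71 on the non-mated ones, so 1 non-mated array stood above all others and the groups overlapped. The difference was -0.80 ± 0.75 (adjusted p = 0.88, limma), and 0.26 without that array, non-mated day 4 replicate 3. A second probe of ANGPT1, dimmer, differed by -1.89 on day 6 where the probe used differed by -0.48, while the dimmer and the used probe gave -0.08 and -0.21 on day 2 and -1.09 and -0.80 on day 4, in the same direction. VEGFC, which acts mainly on lymphatic vessels, differed by -0.12 ± 0.50 on day 2, -0.47 ± 0.56 on day 4 and -0.48 ± 0.46 on day 6. FIGF, another lymphatic factor, was well above background on 0 of 21 arrays and FGF1 on 1 of 21. The 2 probes of FGF1 carry the same 60 bases and were well above background on 1 and 0 of 21 arrays. Their levels differed by up to 2.66 on an array, with an SD of 0.69 and a median of 0. These values describe signals at background and not the repeatability of a detected probe.

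None of the endothelial markers was past the threshold. All 6 tested under their own symbol were higher in conception than in non-mated endometrium on day 4, by 0.29 to 0.55. Their median was 0.48, against 0.01 over all features. On day 6 all 6 were lower, by -1.02 to -0.002, with a median of -0.44 against -0.0001 over all features. The day 6 median was 0.058 within slide 1, where CDH5, ESAM and AQP1 were higher, -0.56 within scan day 1 and -0.081 within scan day 2. Slide 1 holds 2 conception arrays and 1 non-mated array of day 6, and on scan day 1 slide and cycle type cannot be told apart. On day 2 there were 3 on each side and the median was 0.07. Over 24 arrays it was -0.46, against -0.15 for all features. The day 4 median was 0.15 with the weak arrays included, and CDH5 was then lower by -1.06. Cells of a type and RNA per cell cannot be told apart in bulk tissue, here or below.

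ICAM2, an adhesion molecule of resting endothelium, had the largest marker difference on day 6. It lay at -2.06, -3.23, -3.67 and -3.80 on the conception arrays, the last of them not well above background, against -2.34, -2.28, -2.54 and -1.53 on the non-mated arrays. Of the conception arrays, 3 were below every non-mated one and replicate 1 was inside their range. The difference was -1.02 ± 0.45 (adjusted p = 0.50, limma). It was -0.31 within slide 1, -1.32 within scan day 1 and -0.71 within scan day 2, and -0.35 with normexp background correction of the raw signals. CDH5, the cadherin that joins endothelial cells, differed by -0.72 ± 0.60, with 0.64 within slide 1, -1.34 within scan day 1 and -0.093 within scan day 2. It was well above background on 1 of 4 conception day 6 arrays and on 4 of 4 non-mated ones. VWF differed by -0.002 ± 0.30, with an interval of -0.63 to 0.62. ESAM differed by -0.10 ± 0.32. THBD, a thrombin receptor of endothelium, was above background on 0 of 4 conception arrays and 2 of 4 non-mated ones on day 6, but conception replicate 1 at -4.65 was not counted while non-mated replicate 2 at -5.12, on the brighter slide 5, was.

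Growth factors and endothelial markers were then set side by side. The median difference of the growth factors minus that of the markers was -0.07 on day 2, -0.90 on day 4 and 0.31 on day 6. On day 4 the growth factors had a median difference of -0.42 and the markers of 0.48. Summarised per array as the median over genes of the level minus the gene's mean, the markers reached 0.10, 0.85, 0.32 and 0.26 on the 4 conception day 4 arrays against -0.28 and 0.05 on the non-mated ones, which do not overlap. On that day 879 of 12203 features were higher without overlap, and 0 of the 6 markers taken singly were. The growth factors reached 0.04, 0.16, -0.17 and -0.49 on the same conception arrays against 0.20 and 0.11, which do overlap. This day 4 gap rests on 2 non-mated arrays, on slides 5 and 6 that hold no conception array, so slide and cycle type cannot be told apart there. It was -0.61 over 24 arrays, -0.53 without non-mated day 4 replicate 3, -0.47 within scan day 1 and -0.42 with the listed genes under another name added. The day 6 gap of 0.31 was 0.06 with normexp background and -0.05 with slide as a fixed block. No test was made of these summaries.

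**Figure D2:**
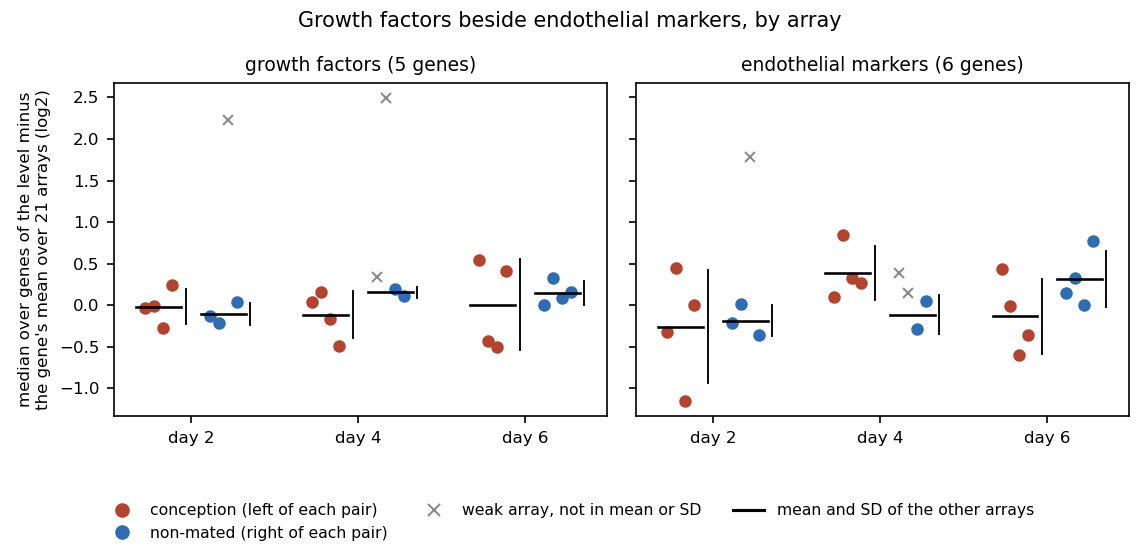
Median over 5 growth factors (left) and 6 endothelial markers (right) of the level minus each gene's mean over 21 arrays, in log2 units, for every array by day, with the mean and SD per group. At day 4 the conception arrays run from 0.10 to 0.85 for the markers, above both non-mated arrays kept, and from -0.49 to 0.16 for the growth factors.

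Among the receptors TEK, the angiopoietin receptor, was the highest member on day 4 and second on day 6. On day 4 it lay at -3.99, -3.71, -1.99 and -3.16 in conception endometrium and at -5.37 and -3.61 in non-mated endometrium, so the groups overlapped. On day 6 it lay at -3.33, -3.79, -3.75 and -3.30 against -4.23, -3.80, -4.48 and -3.93. Every conception day 6 array was above every non-mated one, with -3.79 and -3.80 as the closest pair, and 2.57% of features were higher without overlap. Of these day 6 arrays, 3 of 4 from conception and 2 of 4 from non-mated cycles were well above background. TEK had passed the brightness filter through conception groups only, so its higher levels there are not independent of the filter. The differences were 1.28 ± 0.47 on day 4 (adjusted p = 0.86) and 0.57 ± 0.39 on day 6 (adjusted p = 0.67, limma). The day 4 value was 0.40 without non-mated day 4 replicate 3 and 2.16 without replicate 4. Over 24 arrays it was 0.38, and with normexp background the day 6 value was 0.04. The probe lies at chr15:49864354-49864413 on the minus strand of rheMac2, the build of the array's annotation.

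TIE1, the partner receptor of TEK, lay at -2.33, -2.87, -2.09 and -3.33 on the conception day 4 arrays against -3.76 and -3.26. It differed by 0.27, 0.85 and -0.11 on days 2, 4 and 6, and by -0.58 on day 4 with the weak arrays included. NRP1, a co-receptor for VEGF, lay at 0.77, 1.61, 0.70 and 1.69 on the conception day 6 arrays against 0.96, 0.47, 0.50 and 1.14. The groups of both genes overlapped, and NRP1 differed by -0.15, 0.30 and 0.43 on days 2, 4 and 6. PDGFRA, a receptor of stromal cells, lay at 1.40, 0.76, 1.40 and 1.34 on the conception day 2 arrays and at 1.79, 1.93 and 1.67 on the non-mated ones. All 4 conception arrays were below the 3 non-mated ones, and 1.38% of features were lower without overlap. The difference was -0.57 ± 0.54 (adjusted p = 1.00, limma), and -0.05 over 24 arrays. PDGFRB, the receptor of mural cells, lay at 0.11, -0.86, -0.995 and 0.47 on conception day 2 against -1.45, -0.96 and -0.60. It differed by 0.68 ± 0.60 on day 2, 0.82 ± 0.68 on day 4 and -0.77 ± 0.55 on day 6. Its levels on day 6 were 1.17, -0.83, -1.37 and -1.25 in conception endometrium against -0.63, 0.32, 0.19 and 0.94 in non-mated endometrium. Here 1 conception array stood above and 3 below all non-mated arrays, and the difference within slide 1 was 0.80.

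HEY1, a repressor downstream of Notch, was the lowest member on day 4. It lay at 2.77, 3.60, 2.79 and 2.95 on the conception arrays and at 4.12 and 4.08 on the non-mated ones, with no overlap. SOX17, a factor of arterial endothelium that glands of the uterus also make, was likewise lower on all conception arrays, at 4.18, 3.61, 4.39 and 3.69 against 4.46 and 4.49. Of all features 6.79% were lower without overlap on day 4, where only 2 non-mated arrays enter. HEY1 differed by -1.07 ± 0.43 (adjusted p = 0.86) and SOX17 by -0.51 ± 0.37 (adjusted p = 0.88, limma). Over 24 arrays HEY1 differed by -0.29 and SOX17 by 0.25. On day 6 SOX17 differed by -0.55 ± 0.30 and HEY1 by -0.38 ± 0.35. SOX18, an early endothelial factor, was well above background on 10 of 21 arrays. It lay at -5.69, -4.54, -6.98 and -4.89 on conception day 2 against -5.01, -5.45 and -5.11, and at -5.09, -3.33, -4.54 and -5.41 on conception day 4 against -5.23 and -5.68. Its difference was -0.33 on day 2, 0.87 on day 4 and -0.13 on day 6, with overlap on each day and a value of -0.66 on day 4 over 24 arrays. DLL4 differed by -0.06 ± 0.32 on day 2, 0.32 ± 0.37 on day 4 and 0.05 ± 0.30 on day 6, and on days 2 and 6 its interval was within 2-fold.

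The thrombospondins, matrix proteins that hold back vessel growth, had the highest day 2 differences of the members tested and also the widest spread. THBS1 lay at -1.31, -1.39, -0.70 and -0.39 on the conception day 2 arrays against -4.38, -2.33 and -1.04 on the non-mated ones. The lowest non-mated array was not well above background, and the highest was inside the conception range. THBS1 differed by 1.63 ± 0.69 on day 2 (adjusted p = 1.00, limma), and by 0.74 without non-mated day 2 replicate 1. On day 4 it lay at -2.03, -2.78, -0.61 and -2.75 against -0.59 and -1.73, with 1 conception array level with the higher non-mated one. On days 4 and 6 its differences were -0.88 ± 0.78 and 0.07 ± 0.64. Within slide 4 the day 2 difference was 0.97, and it was 0.50 within scan day 1 and 2.00 within scan day 2. The probe lies at chr7:17888473-17888532 on the plus strand of rheMac2.

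THBS2 lay at -3.56, -2.15, -4.59 and -3.62 on the conception day 2 arrays, all well above background, against -6.37, -5.49 and -4.41 on the non-mated ones, of which 1 was. On day 6 it lay at -5.51, -3.74, -0.95 and -2.79 against -5.90, -4.48, -5.12 and -5.01, with 2 of 4 arrays above background in each group. The groups overlapped on both days. THBS2 had passed the brightness filter through conception day 2 alone, so its day 2 difference is not independent of the filter. The differences were 1.95 ± 0.99 on day 2 (adjusted p = 1.00) and 1.88 ± 0.92 on day 6 (adjusted p = 0.54, limma). The SD of THBS2 between arrays of a group was 1.42, against a median of 0.52 over all features. Within scan day 1 the day 2 difference was 0.30, within scan day 2 it was 3.08 and within slide 4 it was 2.64. Over 24 arrays it was 0.66, and with normexp background the day 6 difference was 0.68. On conception day 2 the summed level of 7 of 13 pericyte and smooth muscle markers ran from 9.35 to 262 between arrays, and its part in these values was not tested.

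EDN1, the endothelin precursor that constricts vessels, had the second lowest difference on day 6. It lay at -3.19, -4.88, -3.49 and -4.31 on the conception arrays, with replicates 2 and 4 not well above background, against -2.55, -3.13, -3.36 and -2.86. Replicates 2, 3 and 4 of conception were below every non-mated array, and replicate 1 was within their range. The difference was -0.99 ± 0.36 (adjusted p = 0.44, limma), with values of -0.66 within scan day 1, -1.33 within scan day 2 and -0.36 with normexp background. On days 2 and 4 it was -0.20 ± 0.39 and 0.26 ± 0.45. ECE1, which cleaves the endothelin precursor, was well above background on 6 of 21 arrays and was not tested. The EDN1 probe lies at chr4:12273484-12273543 on the plus strand of rheMac2.

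**Figure D3:**
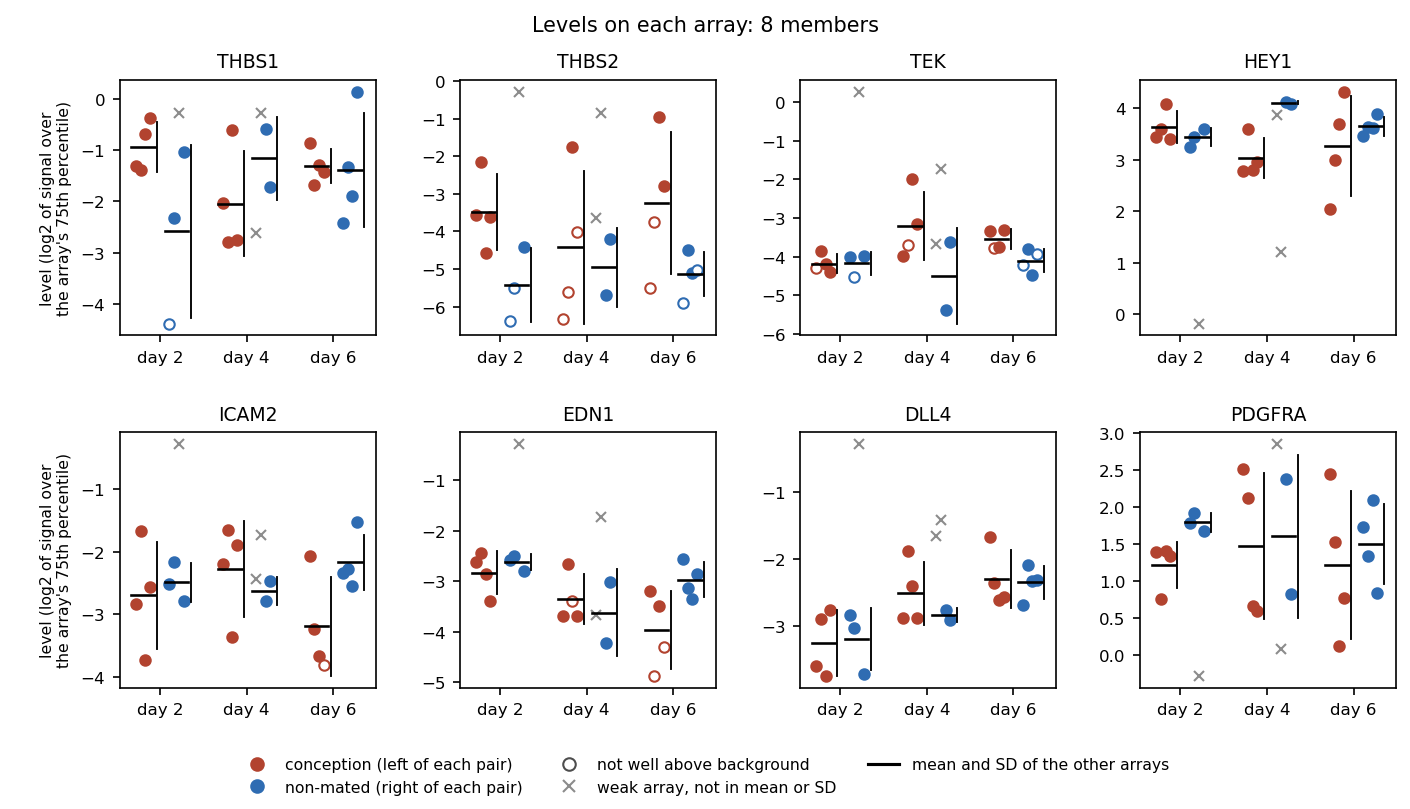
Level of 8 members on each of 24 arrays, by day, with the mean and SD of the arrays that were not weak, open circles for signals not well above background and crosses for weak arrays. DLL4 on day 6 lies above day 2 in both cycle types among arrays that were not weak, while THBS2 and PDGFRA spread over more than 2 units within some groups.

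Day 6 was compared with day 2 within each cycle type to ask how the vessel genes moved as the secretory phase advanced. In conception cycles 208 features passed the threshold, 1.7% of those tested, and 0 of 24 members did (limma, with 2 members and 15.2% of features at an unadjusted p under 0.05). In non-mated cycles 0% of features and 0 members passed, and 2 members and 1.83% of features had an unadjusted p under 0.05. The median member differed by -0.07 in conception cycles and by 0.30 in non-mated cycles, against -0.02 and 0.01 over all features. The non-mated value was -0.25 with the weak day 2 array included, against -0.19 over all features. Day 4 against day 2 in conception cycles gave 0 members against 0.00819% of features, with 3 members, TEK, ESAM and DLL4, at an unadjusted p under 0.05 against 8.32%. Day 6 against day 4 gave 0 members against 0% of features, with 0 members and 5.19% of features at an unadjusted p under 0.05. The interaction of cycle type with day gave 0 against 0%, with 0 members and 4.29% of features at an unadjusted p under 0.05.

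DLL4, the Notch ligand of sprouting tip cells, was 1 of 2 members with an unadjusted p under 0.05 in each cycle type. It lay at -1.68, -2.36, -2.60 and -2.56 on conception day 6 against -3.60, -2.90, -3.74 and -2.75 on conception day 2. In non-mated cycles it lay at -2.68, -2.08, -2.32 and -2.31 on day 6 against -2.83, -3.02 and -3.72 on day 2. In both cycle types all day 6 arrays were above all day 2 arrays that were not weak. In conception cycles 2 members, TEK and DLL4, and 5.33% of features were higher without overlap, and in non-mated cycles 3 members, ESAM, SOX18 and DLL4, and 2.3% of features were, with SOX18 past the brightness filter through that day 6 group alone. The differences were 0.95 ± 0.30 in conception cycles (adjusted p = 0.13) and 0.84 ± 0.32 in non-mated cycles (adjusted p = 1.00, limma). The interaction was 0.11 ± 0.44 (adjusted p = 0.99, limma). With normexp background the difference in conception cycles was 0.09 (adjusted p = 0.95, limma). The non-mated difference was 0.11 with the weak day 2 array, on which DLL4 was not well above background. The probe lies at chr7:19330482-19330541 on the plus strand of rheMac2.

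An average of both cycle types was added after these values had been seen. Day 6 differed from day 2 by 0.89 ± 0.22 for DLL4 (adjusted p = 0.083, limma), with a 95% interval of 0.43 to 1.36. In this average 0 members and 0.311% of features passed, and 5 members and 10.2% of features had an unadjusted p under 0.05. With scan day as a fixed block DLL4 passed, at 0.91 ± 0.22 and an adjusted p of 0.049. It differed by 0.53 over 24 arrays (adjusted p = 0.83). The other 4 members were ESAM at 0.69 ± 0.23, SOX18 at 0.98 ± 0.46, NOS3 at 0.57 ± 0.27 and EDN1 at -0.74 ± 0.27. SOX18 had passed the brightness filter through non-mated day 6 alone, so its place among these 5 members is not independent of the filter.

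EDN1 had the lowest difference over time in conception cycles. Its levels were -2.62, -2.44, -2.87 and -3.40 on day 2, -3.69, -2.65, -3.40 and -3.69 on day 4, and -3.19, -4.88, -3.49 and -4.31 on day 6. The day 2 and day 6 arrays overlapped through 1 array each. The difference of day 6 from day 2 was -1.14 ± 0.36 (adjusted p = 0.14, limma). Without conception day 6 replicate 1 it was -1.40 ± 0.37 and passed, with an adjusted p of 0.038. In non-mated cycles it was -0.35 ± 0.39, and the interaction was -0.79 ± 0.54 (adjusted p = 0.93, limma).

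The remaining members differed less evenly between day 6 and day 2. TEK was higher on every conception day 6 array than on every day 2 array, by 0.64 ± 0.39 (adjusted p = 0.44, limma), and differed by 0.06 ± 0.42 in non-mated cycles, while normexp background gave -0.41 in conception cycles. SOX18 lay at -2.79, -3.80, -6.11 and -5.08 on conception day 6, with 1 of 4 well above background, and overlapped with day 2. It differed by 1.08 ± 0.62 in conception and 0.87 ± 0.67 in non-mated cycles. The non-mated value is not independent of the brightness filter, which SOX18 had passed through non-mated day 6 alone. ESAM differed by 0.55 ± 0.32 in conception cycles and by 0.83 ± 0.34 in non-mated cycles. All 6 endothelial markers were higher on day 6 in non-mated cycles, with a median of 0.51 (0.23 over 24 arrays) where 51.5% of all features were higher, and 3 of 6 in conception cycles, with a median of 0.003. PDGFRB differed by -0.25 ± 0.55 in conception cycles and by 1.20 ± 0.60 in non-mated cycles, an interaction of -1.45 ± 0.81 (adjusted p = 0.93, limma). SOX17 lay at 3.41, 3.34, 4.69 and 3.97 on conception day 6 against 3.95, 4.54, 4.87 and 3.97 on conception day 2, and differed by -0.48 ± 0.30 there and by 0.31 ± 0.32 in non-mated cycles. ICAM2 lay at -2.84, -1.67, -3.73 and -2.56 on conception day 2 and differed by -0.49 ± 0.45 on day 6, with overlap.

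**Figure D4:**
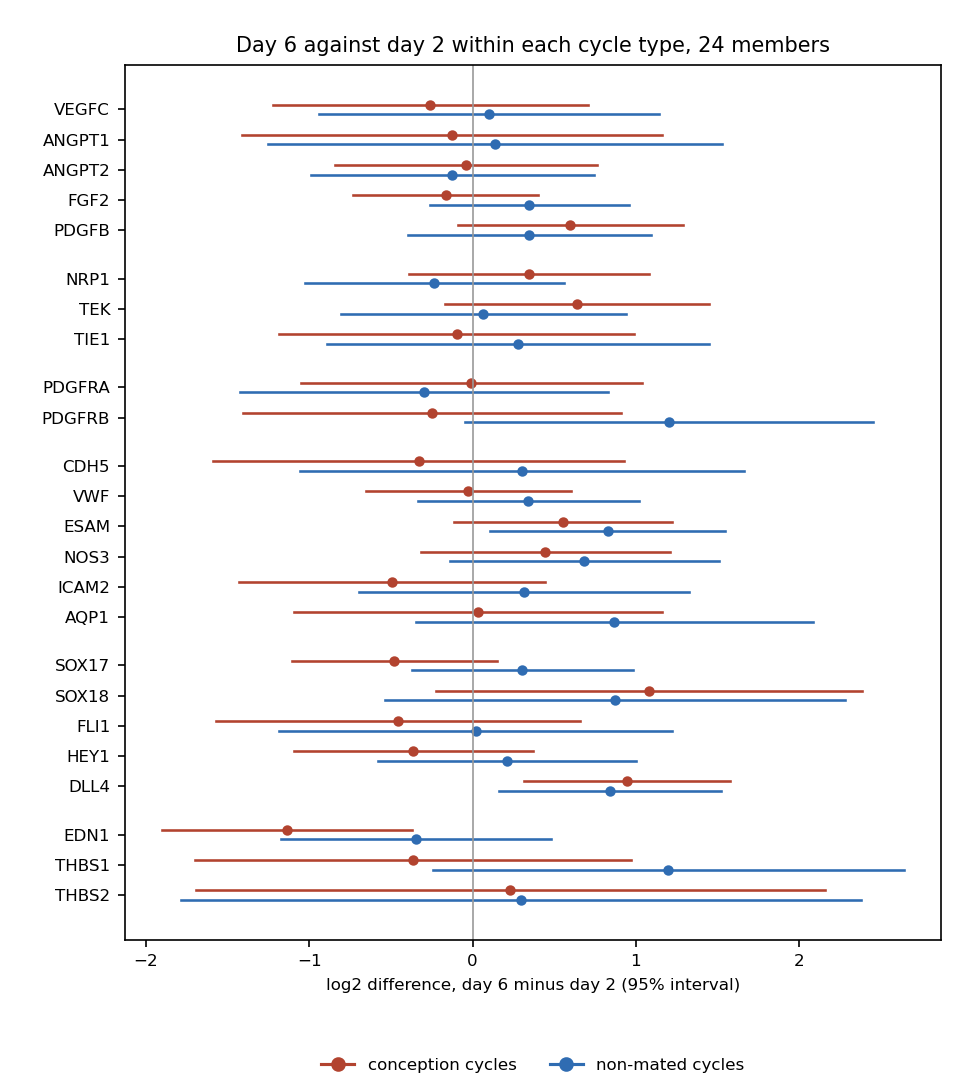
Log2 difference of day 6 minus day 2 for 24 members, with 95% intervals, in conception cycles (upper point of each pair) and non-mated cycles (lower point). DLL4 lies at 0.95 and 0.84 in them, and EDN1 at -1.14 and -0.35.

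Members of a class also differed in how far they moved together from array to array. After subtraction of the group means, the 15 pairs of the 6 endothelial markers had a median Pearson correlation of 0.33 over 21 arrays, from 0.09 to 0.70. The 10 pairs of growth factors had a median of 0.04, from -0.30 to 0.40, and all 74450503 pairs of features had one of -0.001. The points share the array's scaling and the mix of cells in the piece of tissue, so these correlations are a description. In conception cycles the medians were 0.45 for markers and 0.14 for growth factors (12 arrays), and in non-mated cycles 0.39 and -0.31 (9 arrays).

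The gene most like CDH5 among the members was PDGFRB, the mural cell receptor, with a Pearson correlation of 0.91 and a Spearman correlation of 0.86 over 21 arrays. It ranked number 13 of 12202 features by likeness to CDH5. The correlation was 0.97 in conception cycles, 0.63 in non-mated cycles, 0.90 and 0.98 within scan days 1 and 2, and 0.85 without the 2 arrays farthest from the median of CDH5. TIE1 followed with 0.83, PDGFB with 0.74 and FLI1, an endothelial transcription factor, with 0.71. CDH5 was well above background on 17 of 21 arrays, but on 1 of 4 at conception day 6, and FLI1 on 13 of 21. Part of the spread behind these correlations is therefore limited by background signal. The 5 other endothelial markers had correlations of 0.24 to 0.36 with CDH5. HEY1 had -0.53 over all arrays, with -0.63 in conception and 0.72 in non-mated cycles.

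Of the 12 listed genes carried under another name, 10 were tested in the same fit and 0 passed in any of 10 comparisons (limma). At an unadjusted p under 0.05 there was 1, CD34, in conception day 4 against day 2, and PGF and CD34 in day 6 against day 2 averaged over cycle types. VEGFA, the main driver of vessel growth, lay at 0.42, -0.28, 0.24 and 0.50 on conception day 2 against -0.52, -0.38 and -0.08 on non-mated day 2. The groups overlapped, and the difference was 0.54 ± 0.38 (adjusted p = 1.00, limma). Its other 2 probes gave 0.54 and 0.48. On days 4 and 6 VEGFA differed by 0.25 ± 0.43 and 0.10 ± 0.35, and the other probes by 0.62 and 0.11 on day 4 and by -0.02 and -0.09 on day 6. VEGFB differed by 0.31, -0.20 and -0.17 on days 2, 4 and 6.

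PGF, the placental member of the VEGF family, lay at -0.90, -0.96, -0.37 and -0.99 on non-mated day 6 against -1.53, -1.36 and -1.72 on non-mated day 2, without overlap. The difference was 0.73 ± 0.35 in non-mated cycles and 0.57 ± 0.33 in conception cycles. VEGFB, EGFL7, EMCN, CD34 and ANGPTL4 were likewise higher on non-mated day 6 than on day 2 without overlap among arrays that were not weak. Of all features, 2.3% were higher without overlap in that comparison. CD34, a marker of vessel lining and of blood progenitors, lay at 2.70, 2.90, 2.45 and 2.75 on conception day 4 against 1.82, 2.42, 1.21 and 1.73 on conception day 2. Every day 4 array was above every day 2 array, and 2.02% of features were higher without overlap. The difference was 0.90 ± 0.32 (adjusted p = 0.49, limma). ENG, a TGF-beta co-receptor of endothelium, differed between conception and non-mated endometrium by 0.71 ± 0.77 on day 2, 0.99 ± 0.87 on day 4 and -0.67 ± 0.71 on day 6. ANGPTL4, a target of hypoxia and fatty acid signals, differed by 0.29, 0.89 and -0.75.

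**Figure D5:**
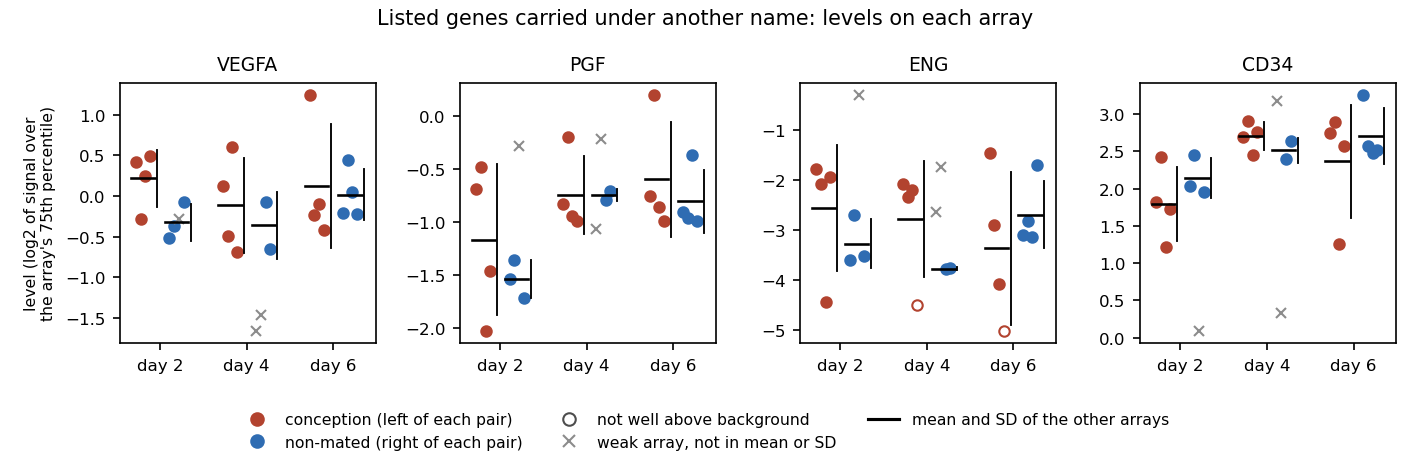
Level of VEGFA, PGF, ENG and CD34, which the array carries under another name, on each of 24 arrays by day, with mean and SD of the arrays that were not weak. CD34 lies between 2.45 and 2.90 on conception day 4, above all conception day 2 arrays, and VEGFA overlaps between cycle types on all 3 days.

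Lists of neighbouring genes were read in the same fit. Of 46 other endothelial genes 29 were tested, and in conception cycles 1 was called higher and 1 lower on day 6 than on day 2. Of these 29, 4 had an unadjusted p under 0.05. Of all features 1.7% were called and 15.2% had an unadjusted p under 0.05. LYL1, a transcription factor of endothelial and blood progenitors, rose by 2.46 ± 0.50 (adjusted p = 0.022), and GATA2, another, fell by 1.08 ± 0.22 on the log2 scale (adjusted p = 0.021, limma). Of 20 hypoxia response genes 12 were tested and 1 was called in the same comparison, NDRG1, which rose by 2.99 ± 0.64 (adjusted p = 0.028, limma). Of the 12, 4 had an unadjusted p under 0.05, 11 had a value below 0 and the median was -0.61. Of 35 other Notch, endothelin and angiogenic signalling genes 17 were tested and 0 were called, with a median of 0.26, where 5 had an unadjusted p under 0.05. In all other comparisons these 3 lists had 0 calls.

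Markers of other cells moved with some of these comparisons. On day 4 the summed level of 5 of 10 macrophage markers was 1.72 to 2.67 in conception against 1.02 to 1.06 in non-mated endometrium, and that of 3 of 9 blood markers was 5.24 to 15.5 against 2.26 to 2.46. The 9 of 13 endometrial stromal markers summed to 168.6 to 241.9 in conception against 106.7 to 138.3 in non-mated endometrium on day 4, and 8 of them were higher. These day 4 ranges rest on 2 non-mated arrays, on slides 5 and 6 that hold no conception array. Slide and cycle type cannot be told apart there, and 879 of 12203 features were higher without overlap. Median differences were 1.13 for macrophage, 0.58 for stromal and 0.50 for blood markers. Over 24 arrays they were 0.68, 0.27 and 0.70. The 7 of 13 natural killer, T and B cell markers summed to 32.0 to 40.1 on conception day 6 against 11.3 to 27.3 on conception day 2. In non-mated cycles they summed to 15.8 to 60.2 on day 6 against 8.67 to 16.6 on day 2. There 7 of 7 were higher on day 6, with a median difference of 0.50 (-0.37 over 24 arrays, against -0.19 for all features). The 5 of 11 epithelial markers summed to 34.1 to 71.4 on conception day 6 and 54.3 to 65.3 on non-mated day 6. Between cycle types on day 6, median differences were -0.48 for epithelial markers (2 higher, 3 lower) and 0.48 for natural killer, T and B cell markers (7 of 7 higher). The 3 of 6 lymphatic endothelial markers had medians of 1.57 on day 4 (-0.07 over 24 arrays) and -0.17 on day 6. The part of all these markers in the members' values was not tested.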

How the data were processed

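Endometrial RNA was measured on 24 Agilent 1-colour arrays. Each spot's deposited intensity had been background-corrected in Feature Extraction 9.5.3.1, per the file headers, whereas version 10.7.3.1 stands in the submitters' processing notes. A log2 table of processed values was deposited too. Its columns had correlations of 0.989 to 1.00 with gene-centred scanner values. Their medians were -0.406 to 0.105 on 21 arrays and 0.698 to 2.85 on the 3 weak ones. The baseline of that table could not be settled, so it entered as an alternative setting.

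Outlier spots were dropped, the 2 spots of a probe averaged, and log2 signals set against the 75th percentile of the array. Of 20217 probes 12780 were kept, those well above background on at least 3 arrays of a group. The brightest probe stood for a gene, which gave 12203 features. Symbols came from the files' gene names, gene IDs and accessions, the last 2 through a RefSeq table used for names only. Group means were fitted with limma 3.58.1 (R 4.3.3, lmFit and eBayes, 15 residual degrees of freedom) on 21 arrays, and p-values are two-sided with Benjamini-Hochberg adjustment. Intervals are 95%. On simulated data for conception against non-mated day 6 (12203 features), 100 features were changed at each size. There 20% of 2-fold and 74% of 4-fold changes were recovered, with 5 false calls each. No recovery is given for days 2 and 4, where fewer non-mated arrays were kept. Files were read and plots drawn with matplotlib 3.10.9, numpy 2.4.6 and pandas 2.3.3 under Python 3.11.15.

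Members and lists were chosen with earlier results of these data known. Values per array are given for members past the threshold and for the 3 highest and 3 lowest in each comparison of cycle types and in conception day 6 against day 2. Array values beyond these (ANGPT2, VEGFA, PGF, CD34 and other days or cycle types of the same members) were chosen after they were seen. From the other lists, genes past the threshold are named. The headers give 9 slides and 2 scan days. On scan day 1 conception arrays lay on slides 7 and 8 and non-mated ones on slides 5 and 6. Of 6 arrays scanned over a single range, 5 were from conception cycles. Alternatives changed the arrays, background, scaling, filter, probe choice and blocks.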

Additional observations from a re-analysis of the deposited data

Results flagged for a closer look

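In groups of 4 arrays, the gap of the highest or lowest array to its neighbour was set against the group's range for each member, 116 groups in all, of which chance alone would mark about 1 in 20. The 4 marked values were as follows. PDGFB lay at -1.51 on non-mated day 6 replicate 3, where the nearest array was at -0.97. PDGFRA lay at 0.76 on conception day 2 replicate 2, where the nearest was at 1.34. THBD lay at -4.65 on conception day 6 replicate 1, with the nearest at -5.60, and neither was well above background. ECE1 lay at -3.53 on conception day 4 replicate 3, where it was well above background, with the nearest at -5.63.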

How the results depend on the processing

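With normexp background several day 6 differences were smaller than in the report, among them DLL4 at 0.09 for conception day 6 against day 2. In the planned comparisons the count of members past the threshold was 0 under every alternative but 2. It was 1 (FIGF) averaged over days with no filter on dim probes, where FIGF was well above background on 0 of 21 arrays, and it was 0 to 1 over the fits that left out 1 array for conception day 6 against day 2, through EDN1 (-1.40 to -0.83). In the added average of both cycle types it was 1, DLL4, with scan day as a block. The gap of growth factors to endothelial markers on day 4 was -0.59 with normexp background, -0.39 with scan day as a block, -0.51 with the replicate block, -0.42 with listed genes under another name added, -0.47 within scan day 1 and -0.95 to -0.53 with 1 array left out. On day 2 it was 0.58 over the arrays of extended scan range, an alternative chosen after seeing the data, as was the addition of other names.

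Signs turned for members that had not passed. Over all 24 arrays, SOX18 on day 4 was -0.66 and TIE1 -0.58. Array weights gave ANGPT1 on day 2 0.12. Normexp background gave SOX18 0.94 and ANGPT1 0.43 on day 2, and SOX18 -0.27 and TEK -0.41 for conception day 6 against day 2. Slide as a fixed block gave SOX18 0.52 and ANGPT1 0.45 on day 2, THBS1 1.01 on day 4 and PDGFRB 0.34 on day 6. The extended scan range gave ANGPT1 0.61 on day 2 and ICAM2 0.74 for conception day 6 against day 2. Within slide 4 SOX18 on day 2 was 0.33, within scan day 2 it was 0.12, and ANGPT1 within scan day 1 was 0.62. PDGFRB on day 6 was 0.80 within slide 1 and 0.017 within scan day 2. With 1 array left out, ANGPT1 ran from -0.60 to 0.17 and SOX18 from -0.66 to 0.15 on day 2, and ANGPT1 from -1.87 to 0.26 on day 4. The cause was not tested.

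Same-numbered arrays of different groups had correlations of -0.37 to 0.63 between their deviations, with 17 of 45 pairs above 0.1. Of 21 arrays, 7 were most like their own number. These values cannot settle whether the numbers pair the samples, since replicate number and scan day mostly go together. With the replicate block 0 members passed, and it changed no other call. Members near background, such as SOX18, THBS2 and FLI1, and CDH5 on conception day 6, have levels limited by background signal.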
